A study of Homo sapiens with 4 samples.

Results

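The 9 genes described here are NFE2L2, which encodes the transcription factor NRF2, its inhibitor KEAP1, and 7 genes that NRF2 is known to activate in the handling of glutathione, heme and NADPH: GCLC, GCLM, HMOX1, NQO1, TXNRD1, SRXN1 and OSGIN1. They were listed by name with earlier results of these data known, and all 9 were found among the 19399 usable genes of the count table. Reads per gene were counted in A549 cells, a widely used human line from a lung adenocarcinoma, depleted of NUPR1 and in control cells. NUPR1, or p8, is a small chromatin protein induced by stress. Each group has 2 libraries of polyadenylated RNA in the labels, 1 single-end and 1 paired-end, but only 1 column in the table. The sources used here do not give how NUPR1 was depleted, for how long, or what the control cells received. Both groups share the A549 background, in which KEAP1 is mutated and NRF2 is constantly active. With 1 column per group no difference has a replicate check, and there is neither a test nor a p-value.

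NRF2 is a basic leucine zipper factor that pairs with a small MAF protein and binds the antioxidant response element. In unstressed cells KEAP1 presents NRF2 to a ubiquitin ligase built on CUL3, and NRF2 is degraded. Oxidants, or loss of KEAP1 function as in many lung adenocarcinomas, let NRF2 accumulate and raise the enzymes that make glutathione, break down heme and use or regenerate NADPH.

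The column of knockdown cells held 16635336 reads and that of control cells 20289107. NUPR1 had 71 reads in knockdown cells against 197 in control cells, a log2 ratio of knockdown over control of -1.21 (-1.63 to -0.81), so the gene named by the labels was lower in the column labelled for its depletion. Levels are given as CPM, which is the count scaled to a common column total by TMM factors, and as the authors' RPKM where genes are compared per length. Ranges in parentheses are 95% intervals that cover counting error only. A gene is called higher or lower when it differs by at least 1.5-fold and its mean is at least 5 CPM. Of 6 epithelial markers, 3 keratins were abundant: KRT8 had 175985 reads in knockdown cells and 176361 in control cells, KRT18 had 153316 in knockdown cells and 162201 in control cells, and KRT7 had 32778 in knockdown cells and 48531 in control cells. The adhesion protein CDH1 had 1197 reads in knockdown cells and 865 in control cells, a log2 ratio of 0.73. EPCAM had 68 reads in knockdown cells and 84 in control cells, and KRT19 had 22 in knockdown cells and 46 in control cells, so both were low. The alveolar type II markers SFTPC and SFTPB had 33 and 53 reads in knockdown cells, against 37 and 33 in control cells. ABCA3, the lipid transporter of that list, had 475 in knockdown cells and 504 in control cells, and NKX2-1 is not a row of the table used. Leukocyte markers summed to 2.68 CPM under knockdown and 2.69 CPM in controls, and endothelial markers to 2.14 CPM under knockdown and 0.697 CPM in controls. Fibroblast markers summed to 9.88 CPM under knockdown and 5.92 CPM in controls. Red cell markers summed to 1 read in knockdown cells and 3 in control cells. The part of the fibroblast and endothelial markers in the results was not tested, and no endothelial marker had more than 18 reads in knockdown cells or 6 in control cells.

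All 9 genes had a higher value in knockdown cells than in control cells, and they differed widely in by how much. The heme oxygenase gene HMOX1 stood apart at 2.62-fold, OSGIN1 followed at 1.93-fold, and the glutathione synthesis genes GCLM and GCLC were at 1.54-fold and 1.52-fold. TXNRD1 and SRXN1 were 1.37-fold and 1.27-fold higher. NQO1, the most abundant of the 9 per length, was only 1.09-fold higher, and KEAP1 and NFE2L2 were at 1.11-fold and 1.071-fold. Thus 4 of the 9 were called higher and 0 lower, where of all 10689 genes that average 5 CPM or more 3.72% were called higher and 4.44% lower. At 2-fold, HMOX1 alone of the 9 was called, against 0.992% of all genes higher and 1.13% lower. The median log2 ratio of the 9 was 0.46, and that of all 10689 genes was 0.0070. The counting interval lay above equal levels for 8 of the 9, as it did for 27.9% of all genes, so at this depth an interval above equality is common. With a trend on GC content removed, GCLC stood at 1.49-fold and GCLM at 1.46-fold, while OSGIN1 reached 2.10-fold, and 2 of the 9 were then called. The share of all genes called with that trend removed is not given here, so that number has no background beside it. In bulk RNA a change in the share of cells and a change in RNA per cell cannot be told apart.

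**Figure D1:**
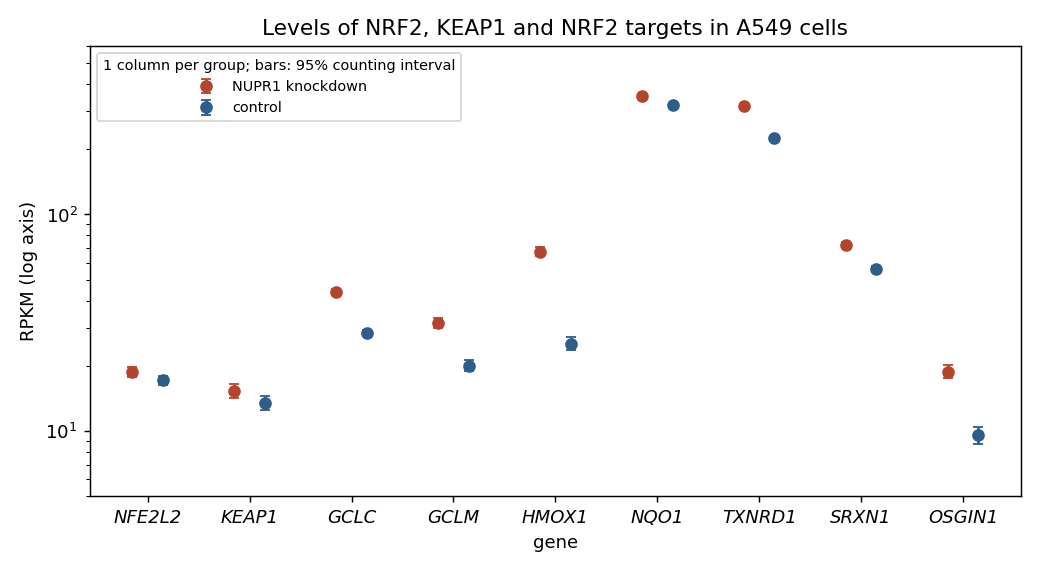
RPKM of each gene (log axis) in NUPR1 knockdown cells (red, left) and in control cells (blue, right), with 95% counting intervals and 1 column per group. HMOX1 had 67.5 RPKM in knockdown cells and 25.3 RPKM in control cells, while the points of NFE2L2, KEAP1 and NQO1 lie close together.

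NFE2L2 itself, at the head of the pathway, had 1580 reads in knockdown cells and 1765 in control cells. That was 94.1 CPM (89.5 to 98.8) under knockdown and 87.8 CPM (83.8 to 92.0) in controls, with a log2 ratio of 0.10 (0.00050 to 0.20). Upper-quartile factors shift every log2 ratio by -0.012, which brings the interval of NFE2L2 across equality. KEAP1, the adaptor that holds NRF2 for degradation, had 679 reads in knockdown cells against 732 in control cells, which is 40.4 CPM (37.4 to 43.6) under knockdown and 36.4 CPM (33.8 to 39.2) in controls. The log2 ratio of KEAP1 was 0.15 (-0.0021 to 0.30), so with TMM factors its difference was within counting error. Column totals alone shift every log2 ratio by 0.027, which lifts the interval of KEAP1 above equality. Per length, NFE2L2 transcripts stood at 1.22 times those of KEAP1 (1.12 to 1.34) in knockdown cells and at 1.27 times (1.16 to 1.38) in control cells. Neither gene was called. The relatives of NFE2L2 did not differ beyond counting error. NFE2L1, which drives proteasome genes, had a log2 ratio of -0.03 (-0.08 to 0.02), and NFE2L3 had -0.12 (-0.30 to 0.05). In the GENCODE 29 annotation NFE2L2 overlaps AGPS on the opposite strand, which had 1332 reads in knockdown cells and 1357 in control cells. The sources used here do not give the strand setting of the counts, so reads of the overlap cannot be told apart. The limit is not particular to NFE2L2: 7 of the genes described here overlap 20 others, of which AGPS alone has a count. Protein-coding genes without a count overlap OSGIN1 (AC009119.2), SRXN1 (AL121758.1) and TXNRD1 (EID3) on the same strand. Whether reads of these were counted for OSGIN1, SRXN1 or TXNRD1 was not tested.

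Genes for partners, repressors and relatives of NRF2 had log2 ratios from -1.11 to 1.11. Of 22 listed, 20 were measured at a mean of at least 5 CPM, 14 of them higher and 6 lower, with 3 called higher, 1 called lower and a median log2 ratio of 0.08. Over all genes tested, 3.72% were called higher and 4.44% lower. The number called higher was 2 with RPKM plus 1, where BACH1 had 0.51, and 2 with a GC trend removed, where RBX1 had 0.58, just under 1.5-fold. SQSTM1, the autophagy receptor p62 that competes with NRF2 for KEAP1, had 15228 reads in knockdown cells against 8430 in control cells, a log2 ratio of 1.11 (1.074 to 1.15). BACH1, the heme-sensing repressor that occupies the same element and is best known for silencing HMOX1, had 331 reads in knockdown cells against 243 in control cells, a log2 ratio of 0.70 (0.46 to 0.95). RBX1, the RING subunit of the cullin ligase, had 0.64 (0.43 to 0.85), whereas the scaffold CUL3 had -0.03 (-0.11 to 0.04). MAFK, a small MAF partner of both NRF2 and BACH1, was the lowest of the list. It had 2054 reads in knockdown cells against 5323 in control cells, which is 122 CPM under knockdown and 265 CPM in controls, with a log2 ratio of -1.11 (-1.19 to -1.04).

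**Figure D2:**
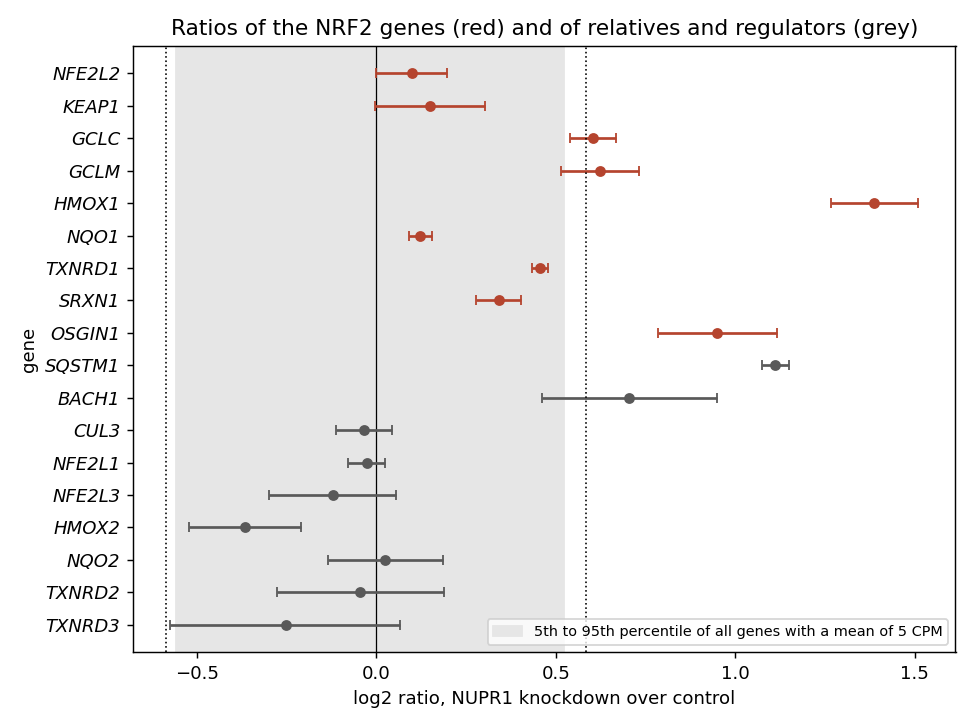
Log2 ratio of NUPR1 knockdown over control (horizontal axis) of the 9 genes in red and of their relatives and regulators in grey, with 95% counting intervals. Dotted lines mark 1.5-fold and the grey band the 5th to 95th percentile of all genes (-0.56 to 0.52). HMOX1, OSGIN1, SQSTM1, GCLC, GCLM and BACH1 lie to the right of the band.

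GCLC and GCLM encode the catalytic and the modifier subunit of glutamate-cysteine ligase, the rate-limiting enzyme of glutathione synthesis. GCLC had 4498 reads in knockdown cells against 3539 in control cells, which is 268 CPM (260 to 276) under knockdown and 176 CPM (170 to 182) in controls. Its log2 ratio was 0.61 (0.54 to 0.67), at rank 373 from the highest of 10689 genes. GCLM had 1592 reads in knockdown cells against 1236 in control cells, which is 94.8 CPM (90.2 to 99.6) under knockdown and 61.5 CPM (58.1 to 65.0) in controls. Its log2 ratio was 0.62 (0.52 to 0.73), at rank 342. The subunits differed together: per length there were 0.716 GCLM transcripts for each of GCLC (0.676 to 0.759) in knockdown cells and 0.707 (0.662 to 0.754) in control cells, which lie within each other's counting error.

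The other genes of glutathione synthesis, recycling and transport were mostly higher by small amounts. Of 24, 19 had a mean of 5 CPM, 14 higher and 5 lower, with a median log2 ratio of 0.16 and 1 called in each direction. GLRX, the cytosolic glutaredoxin that removes glutathione from proteins, was the one called higher at 0.85 (0.73 to 0.96). GSR, which reduces glutathione with NADPH, had 0.49 (0.43 to 0.54), and the mitochondrial GLRX2 had 0.51 (0.17 to 0.86). GSS and SLC7A11 were picked for mention after their values were seen. GSS, the enzyme of the second step of synthesis, had 897 reads in knockdown cells against 1072 in control cells and a log2 ratio of 0.0020 (-0.13 to 0.13). The cystine transporter gene SLC7A11 had 0.06 (-0.0077 to 0.13). Of the 15 measured enzymes that use glutathione, 10 were higher and 5 lower, with 2 called higher, 0 called lower and a median of 0.19. Beside both lists, 51.2% of all genes tested were higher, 3.72% were called higher and 4.44% called lower. The peroxidase genes GPX2 and GPX3 were the ones called, at 1.58 (1.49 to 1.67) and 0.93 (0.61 to 1.26). GSTK1 and GSTZ1, both glutathione transferases, had 0.45 (0.34 to 0.56) and 0.38 (0.18 to 0.58).

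HMOX1 encodes the inducible heme oxygenase, which opens the heme ring to biliverdin, iron and carbon monoxide. It had 1760 reads in knockdown cells against 805 in control cells, which is 105 CPM (99.96 to 110) under knockdown and 40.1 CPM (37.3 to 42.9) in controls. The log2 ratio was 1.39 (1.27 to 1.51), at rank 39 from the highest of 10689 genes. Its constitutive relative HMOX2 went the other way, with 560 reads in knockdown cells against 863 in control cells and a log2 ratio of -0.36 (-0.52 to -0.21). Per length, HMOX1 transcripts were 4.91 times those of HMOX2 (4.47 to 5.41) in knockdown cells and 1.46 times (1.32 to 1.61) in control cells. HMOX1 also changed its place among the 9. Per length it stood below GCLC in control cells and above GCLC in knockdown cells. It stood above GCLM in both columns. The level of HMOX1 per length was 2.14 times that of GCLM (1.996 to 2.29) in knockdown cells and 1.26 times (1.15 to 1.38) in control cells.

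Among 22 measured genes of heme synthesis, heme breakdown and iron storage, 15 were higher and 7 lower, with 2 called higher, 0 called lower and a median log2 ratio of 0.19. Among all genes tested, 3.72% were called higher and 4.44% lower. ABCG2, an exporter that also carries porphyrins, had 1505 reads in knockdown cells against 869 in control cells, a log2 ratio of 1.05 (0.93 to 1.17). BLVRB, a biliverdin reductase that uses NADPH, had 0.63 (0.53 to 0.73), and the heme exporter FLVCR1 had 0.58 (0.38 to 0.77). FLVCR1, at 1.49-fold, was called higher with column totals, with RPKM plus 0.1 and with a length trend removed. The number of this list called higher was 3 with column totals. ACO1, the cytosolic aconitase that doubles as an iron-regulatory protein, was lowest at -0.42 (-0.54 to -0.30). The ferritin chains FTL and FTH1, picked after their values were seen, had 0.35 (0.31 to 0.38) and 0.21 (0.18 to 0.24). Both have processed pseudogenes whose reads the authors' counting may have split.

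NQO1 encodes the quinone reductase that spends NADPH or NADH to reduce quinones, and it is a common readout of NRF2 activity. It had 15058 reads in knockdown cells against 16544 in control cells, which is 897 CPM (882 to 911) under knockdown and 823 CPM (811 to 836) in controls. The log2 ratio of NQO1 was 0.12 (0.09 to 0.16), at rank 3510 of 10689. This is a small difference at a high level. In RPKM NQO1 stood at 354 (rank 120 among all genes) in knockdown cells and at 319 in control cells. Its relative NQO2 had 15.4 RPKM in knockdown cells, against 14.8 RPKM in control cells, and a log2 ratio of 0.03 (-0.14 to 0.19). For each NQO1 transcript per length there were 0.190 of HMOX1 (0.181 to 0.200) in knockdown cells and 0.0793 (0.0738 to 0.0851) in control cells.

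Of 20 measured genes of quinone, aldehyde and epoxide detoxification besides NQO1, 17 were higher and 3 lower, with 2 called higher, 0 called lower and a median log2 ratio of 0.21. The shares of all genes tested were 51.2% higher, 3.72% called higher and 4.44% called lower. CYP4F11, a fatty acid hydroxylase, had 1.19 (1.04 to 1.33), and AKR1C1, a ketosteroid and aldehyde reductase, 0.59 (0.47 to 0.71). AKR1C1 has near-identical neighbours in its family, so its count is uncertain. Its call rests on the edge of 1.5-fold and was lost with upper-quartile scaling, with a length trend removed and with a GC trend removed. AKR1B10, a reductase of retinal and aldehydes, had 31605 reads in knockdown cells against 27968 in control cells and a log2 ratio of 0.44 (0.41 to 0.46). ALDH3A1, an aldehyde dehydrogenase often listed with these targets, was the lowest, with 10293 reads in knockdown cells against 18333 in control cells and a log2 ratio of -0.57 (-0.61 to -0.54). It was called lower with upper-quartile scaling.

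The genes listed under NADPH generation and the pentose phosphate pathway were divided between the directions. Of 19 measured, 8 were higher and 11 lower in knockdown cells, 0 were called higher, and ALDH1L2, a mitochondrial folate enzyme, was the one called lower, at -0.64 (-0.82 to -0.47). With RPKM plus 1 ALDH1L2 had -0.48, short of 1.5-fold. The median log2 ratio of this list was -0.03. Across all genes tested, 3.72% were called higher and 4.44% lower. PGD, the second NADPH-yielding enzyme of the pentose phosphate pathway, had 19744 reads in knockdown cells against 32134 in control cells, which is 1176 CPM under knockdown and 1599 CPM in controls. Its log2 ratio was -0.44 (-0.47 to -0.42). The NADPH-yielding IDH1 and ME1 had 0.38 (0.31 to 0.45) and 0.37 (0.31 to 0.42).

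TXNRD1 encodes the cytosolic thioredoxin reductase, a selenoprotein that passes electrons from NADPH to thioredoxin. It had the most reads of the 9, with 35017 in knockdown cells against 30531 in control cells, which is 2085 CPM (2063 to 2107) under knockdown and 1519 CPM (1502 to 1536) in controls. Its log2 ratio was 0.46 (0.43 to 0.48), at rank 713 of 10689. The mitochondrial TXNRD2 and the testis-type TXNRD3 had 278 and 141 reads in knockdown cells and 343 and 201 in control cells. Their log2 ratios were -0.04 (-0.28 to 0.19) and -0.25 (-0.57 to 0.07), within counting error. SRXN1 encodes sulfiredoxin, which repairs overoxidised peroxiredoxins. It had 4149 reads in knockdown cells against 3920 in control cells, which is 247 CPM (240 to 255) under knockdown and 195 CPM (189 to 201) in controls. The log2 ratio of SRXN1 was 0.34 (0.28 to 0.40), at rank 1241. NQO1 and TXNRD1 together held 76.9% of the reads of the 9 genes in knockdown cells and 79.0% in control cells.

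Thioredoxins, peroxiredoxins and genes of sulfoxide repair were divided, 8 higher and 9 lower of 17, with 0 called in either direction and a median log2 ratio of -0.0015 whose sign depends on the scaling. TXN, the thioredoxin that TXNRD1 reduces, had the highest log2 ratio of the list, at 0.55 (0.51 to 0.60). Its level was 574 CPM under knockdown and 391 CPM in controls. MSRB2 and MSRB3, methionine sulfoxide reductases, had -0.57 (-0.93 to -0.21) and -0.32 (-0.42 to -0.21), and the sestrin gene SESN3 had -0.30 (-0.61 to 0.0059). Of 6 measured genes listed under selenoprotein synthesis, 4 were higher and 2 lower, with 1 called higher and a median of 0.38. For these lists too, the background is 3.72% of all genes called higher and 4.44% called lower. SEPHS2, which makes the selenium donor, was the one called at 0.68 (0.59 to 0.78). TRNAU1AP and SEPSECS, which serve the selenocysteine transfer RNA, had 0.55 (0.23 to 0.87) and 0.45 (0.03 to 0.86). SEPHS1, of the same list, had 0.32 (0.22 to 0.41).

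OSGIN1, oxidative stress-induced growth inhibitor, is linked to cell death and growth arrest under oxidative stress. It had 785 reads in knockdown cells against 486 in control cells, which is 46.7 CPM (43.5 to 50.1) under knockdown and 24.2 CPM (22.1 to 26.4) in controls. The log2 ratio was 0.95 (0.79 to 1.12), at rank 127 of 10689. OSGIN1 was the lowest of the 9 per length in control cells, at 9.55 RPKM (8.72 to 10.4). In knockdown cells it stood at 18.8 RPKM (17.5 to 20.2), above KEAP1 at 15.3 RPKM (14.2 to 16.5) and within counting error of NFE2L2 at 18.7 RPKM (17.8 to 19.7).

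**Figure D3:**
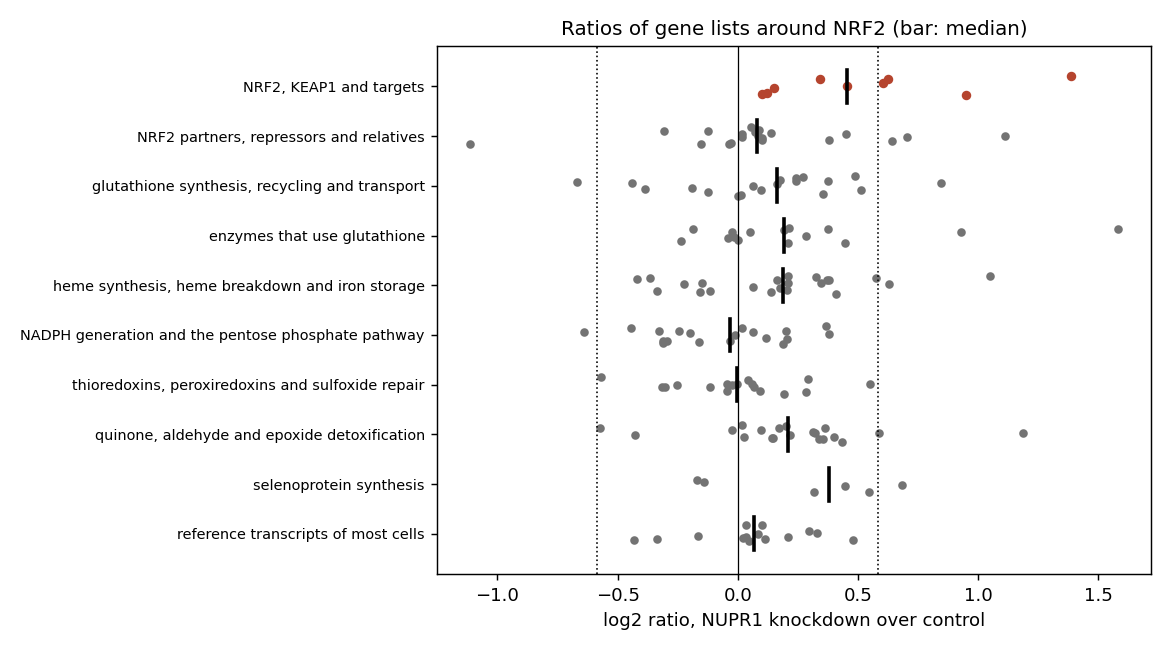
Log2 ratio of NUPR1 knockdown over control (horizontal axis) for each gene with a mean of 5 CPM, by list, with a bar at the median and dotted lines at 1.5-fold. The median of the 9 genes was 0.46, those of the pathway lists ran between -0.03 and 0.38, and that of reference transcripts was 0.07.

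In all, 138 genes of the 8 pathway lists had a mean of 5 CPM. Of these 90 were higher and 48 lower, 11 (7.97%) were called higher and 3 (2.17%) called lower, and the median log2 ratio was 0.10. Over all genes tested, 51.2% were higher, 3.72% were called higher and 4.44% were called lower. For scale, 14 reference transcripts present in most cells spanned -0.43 for ACTB to 0.48 for B2M, with 0 called. The ratios of SRXN1 and TXNRD1 lie within that span, those of NFE2L2, KEAP1 and NQO1 well within it, and those of HMOX1, OSGIN1, GCLM and GCLC above it.

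Per length, the order of the 9 genes in knockdown cells was NQO1, TXNRD1, SRXN1, HMOX1, GCLC, GCLM, OSGIN1, NFE2L2 and KEAP1. In control cells it was NQO1, TXNRD1, SRXN1, GCLC, HMOX1, GCLM, NFE2L2, KEAP1 and OSGIN1. HMOX1 stood above GCLC in knockdown cells, at 67.5 RPKM against 44.1 RPKM, and below it in control cells, at 25.3 RPKM (23.5 to 27.1) against 28.4 RPKM (27.5 to 29.3). NQO1 and TXNRD1 were further apart in control cells, at 319 RPKM and 225 RPKM, than in knockdown cells, at 354 RPKM and 316 RPKM. The 9 genes took 0.391% of all reads in knockdown cells and 0.294% in control cells.

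**Figure D4:**
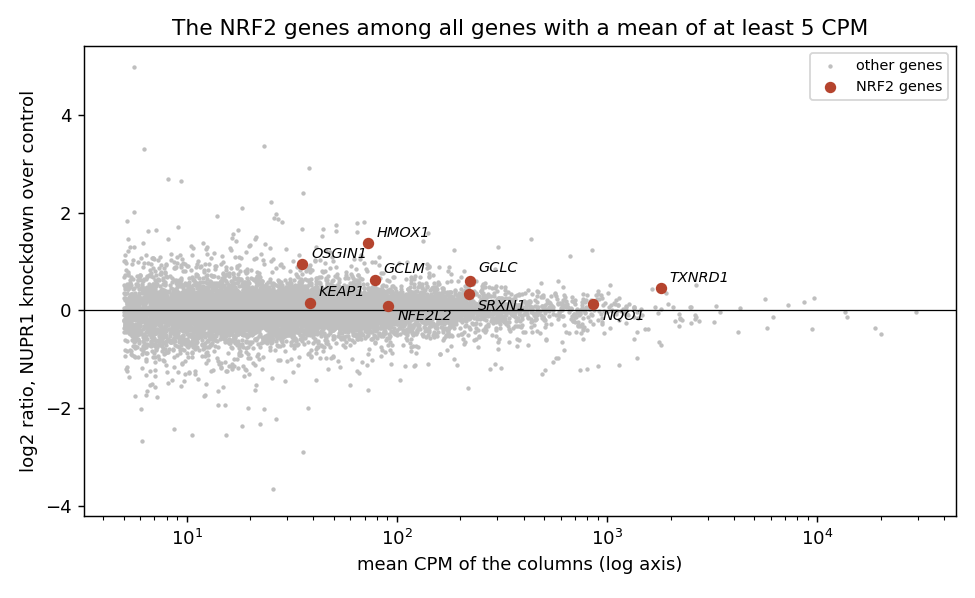
Log2 ratio of NUPR1 knockdown over control (vertical axis) against mean CPM (log axis) for 10689 genes in grey, with the 9 genes in red. HMOX1 and OSGIN1 lie at the upper edge of the cloud, and NQO1, KEAP1 and NFE2L2 lie within it near 0.

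The genes nearest to each of the 9 in log2 RPKM over both columns were also looked up, a likeness that rests on only 2 values per gene. NFE2L2 was nearest to ILKAP (distance 0.0077), KEAP1 to TNFRSF10A (0.0090), NQO1 to C1QBP (0.014) and SRXN1 to TMOD3 (0.0063). GCLC was nearest to MCU (0.03), GCLM to CYB5B (0.08), OSGIN1 to CD68 (0.10) and TXNRD1 to RPS21 (0.10). HMOX1 had no close neighbour: PTGES, with 56.0 RPKM in knockdown cells and 27.8 RPKM in control cells, was nearest at 0.30.

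The upstream sequences of these genes were searched for the core of the antioxidant response element, the 9 letters TGACNNNGC, on either strand of the 250 bases before each annotated start. RefSeq promoters of GRCh38.p14 were matched by symbol for 8 of the 9 genes, with HMOX1 as the exception. The core was present for 3 of these 8, KEAP1, GCLM and TXNRD1, and in 13.2% of all 27305 genes in the table. By window, it was present in 4 of the 11 windows of these genes and in 10.9% of all windows. Sequence beyond the 250 bases was not searched, so a gene without a match here may still hold the core elsewhere. The 4 windows that hold it are shown because they place the core beside genes with different ratios, KEAP1 near equality and GCLM and TXNRD1 higher in knockdown cells. They are written 5′ to 3′ on the gene's strand, and capitals mark the core on either strand. The GCLM window is chr1:93909431-93909680 on the minus strand, the KEAP1 window chr19:10502772-10503021 on the minus strand, and the TXNRD1 windows chr12:104215529-104215778 and chr12:104286782-104287031 on the plus strand.
GCLM: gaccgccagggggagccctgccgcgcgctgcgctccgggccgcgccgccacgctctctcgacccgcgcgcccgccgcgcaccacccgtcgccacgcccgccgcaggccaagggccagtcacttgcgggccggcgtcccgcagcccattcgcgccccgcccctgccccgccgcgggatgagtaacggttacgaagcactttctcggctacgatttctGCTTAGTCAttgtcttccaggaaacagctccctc
KEAP1: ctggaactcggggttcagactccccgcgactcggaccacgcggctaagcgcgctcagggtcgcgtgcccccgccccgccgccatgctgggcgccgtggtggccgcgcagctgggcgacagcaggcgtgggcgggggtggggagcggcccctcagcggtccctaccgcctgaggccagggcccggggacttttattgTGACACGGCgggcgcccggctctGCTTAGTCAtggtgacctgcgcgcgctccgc
TXNRD1, first start: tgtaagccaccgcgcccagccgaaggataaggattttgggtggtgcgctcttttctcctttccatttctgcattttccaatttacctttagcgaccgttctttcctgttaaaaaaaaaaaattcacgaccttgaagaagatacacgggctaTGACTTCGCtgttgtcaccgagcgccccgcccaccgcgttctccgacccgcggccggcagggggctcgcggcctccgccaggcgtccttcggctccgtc
TXNRD1, second start: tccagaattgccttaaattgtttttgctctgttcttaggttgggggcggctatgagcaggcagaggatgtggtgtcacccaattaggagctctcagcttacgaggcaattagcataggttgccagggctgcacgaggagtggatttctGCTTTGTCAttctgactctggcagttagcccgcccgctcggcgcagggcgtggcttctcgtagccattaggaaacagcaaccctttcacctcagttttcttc

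GCLM and KEAP1 held the same letters, TGACTAAGC, on the strand opposite to the gene, 25 and 22 bases before the start. That exact word, looked at after it was seen in both, was present on either strand in 0.106% of genes in the table. KEAP1 held a second match, TGACACGGC, 45 bases before the same start. The window of its other annotated start, chr19:10503357-10503606 on the minus strand, had 0 matches of the core. TXNRD1 held TGACTTCGC 90 bases before its first start and TGACAAAGC 93 bases before its second. None of these matches overlapped the AP-1 word TGANTCA, which was present in the OSGIN1 window. Over all genes with a mean of 5 CPM and a promoter in the table, the 1312 with the core had a median log2 ratio of 0.04 and 4.12% were called higher, against 0.0099 and 3.32% for all 8036. A match of letters describes this window and does not show that a factor binds there.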

How the data were processed

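Whole read counts per gene are in 1 deposited table and the authors' RPKM in another, each with 1 column per group. The submitters' processing notes name TopHat2 2.0.10, edgeR 3.2.2 and hg19 without stating their roles, and per the file headers the values are on hg19. The sources used here do not give the counter, the annotation, the strand setting or how single-end and paired-end libraries were joined. The gene lengths are the authors'. All RPKM above 1 equalled count over deposited length over 1 constant per column, within 1%. The knockdown column's name differs by 1 letter from its library titles and was matched by its start. There were 0 further columns of values.

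Left out were 3 rows with a length of 1 base or none (0.0872% of knockdown reads, 0.0509% of control reads), and 26 symbols turned into dates were restored. TMM factors (1.01 and 0.991) and the filterByExpr filter (minimum count 10, minimum total 15) came from edgeR 4.0.16 in R 4.3.3, leaving 14175 genes, of which 10689 had a mean of 5 CPM. No residual degrees of freedom remain, so nothing was tested. Poisson intervals of levels and exact conditional intervals of ratios were at 95% (scipy 1.17.1, Python 3.11.15). The ratio intervals alone were checked, on simulated Poisson counts. Such counts hold no spread beyond counting, so the check does not reach other sources of error. These intervals cover counting error only. Reads carry no molecular identifiers, so copies cannot be told from separate molecules, and the intervals may be too narrow even for that error. Members and lists were chosen with earlier results of these data known. Besides the members, the text names up to 4 genes of each list with the largest ratios, regulators and relatives named beforehand, and the nearest gene of each member. A gene that this rule takes is not reported here. Promoters are from RefSeq (GRCh38.p14), overlaps and GC content from GENCODE 29, with GC found for 92.9% of these 10689 genes.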

Additional observations from a re-analysis of the deposited data

How the results depend on the processing

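No paired analysis was possible because each group has a lone column, and leaving out each library was not run for the same reason. Over column totals, median-of-ratios and upper-quartile scaling, RPKM plus 1 or 0.1, other filters and removal of a length or GC trend, all 9 members stayed higher in the knockdown column. HMOX1 ranged from a log2 ratio of 1.36 to 1.45, OSGIN1 from 0.90 to 1.073, GCLC from 0.58 to 0.63 and GCLM from 0.55 to 0.65. TXNRD1 had 0.484 with column totals, 0.485 with RPKM plus 1, 0.486 with RPKM plus 0.1 and 0.427 with the GC trend removed, and NQO1 had 0.073 with the length trend removed. Members called higher were 2 with the GC trend removed, 1 at 2-fold and 6 at a ratio of 5 to 4. At 2-fold 0.992% of all genes were called higher. The numbers of all genes called at both folds follow, with none given for the GC trend.

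All genes called higher and lower were 747 and 938 of 13094 at a mean of 1 CPM. With no filter they were 1917 and 2093 of 16991. Of 10689 genes, 106 and 121 were called at 2-fold, and 1380 and 1436 at a ratio of 5 to 4. With RPKM plus 1 they were 276 and 229 of 10689, where the main numbers were 398 and 475 of 10689. More were higher than lower with RPKM plus 1, with column totals (452 and 423) and with RPKM plus 0.1 (422 and 391). In the quinone and aldehyde list 1 was called higher with upper-quartile scaling, with the length trend removed and with the GC trend removed, and 1 lower with upper-quartile scaling. In the list of NADPH generation and the pentose phosphate pathway, 0 were called lower with RPKM plus 1. In that list 2 were called lower at a mean of 1 CPM and with no filter. Glutathione synthesis genes called lower were 2 with no filter, and thioredoxin genes called lower were 1 with the length trend removed. Filters and folds change these numbers by construction, and for the rest the cause was not tested.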
